A study of Homo sapiens with 19 samples.

Results

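CD86, CD80, CD40, CD83, ICAM1 and CD274 are 6 genes for surface proteins through which antigen-presenting cells and T cells influence each other, and they were followed through 12 lists of histone mark peaks from MOLM-13 cells. They were chosen by name, with earlier results of these data known, as 6 of the 20046 protein-coding genes of GENCODE release 44 on hg38. For each gene the bp under peaks was summed per list within 10 kb on either side of the annotated transcription start site (TSS) and over the gene body. MOLM-13 is a human acute myeloid leukaemia line, and CUT&RUN uses an antibody-directed nuclease to release the DNA that lies with a histone mark. Cells were given Corin, an inhibitor of LSD1 and of the histone deacetylases of the CoREST complex, or the vehicle DMSO. Treatment lasted 24 h, and the labels give 0.1 µM for Corin and also for the DMSO libraries, where its meaning is unclear. H3K27ac, H3K4me2 and H3K4me3 were each profiled in 2 Corin and 2 DMSO libraries. Not analysed here were 7 further libraries of the series: 4 of all-trans retinoic acid with Corin, 2 IgG controls and 1 for LSD1 itself.

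Co-stimulatory ligands give a T cell the signal it needs beside antigen. CD86 and CD80 bind CD28 and CTLA4, CD40 receives the CD40 ligand of helper T cells and passes the signal on to NF-kB, CD83 is a surface marker of mature dendritic cells, ICAM1 holds cells together by binding the integrin LFA-1, and CD274 (PD-L1) inhibits T cells through PDCD1. LSD1 removes methyl groups from H3K4me2 and H3K4me1, H3K4me3 lies mostly at promoters, and H3K27ac marks active promoters and enhancers. CD86 is used in myeloid leukaemia as a surface marker of the response to LSD1 inhibition.

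The lists held 292523 peaks, of which 100 lay at the 6 genes. H3K27ac lists held 34424 and 30029 peaks after Corin against 17599 and 19995 after DMSO, H3K4me2 lists 41152 and 40042 against 30896 and 32299, and H3K4me3 lists 11757 and 11883 against 11104 and 11343. The files hold no read counts, and for depth the labels state only that each sample had at least 5000000 reads of 150 bp. A difference in bp can therefore not be told apart from a difference in how many peaks a library yielded, and in a bulk sample a mark on more cells and more of the mark per cell cannot be told apart. Of 10 myeloid markers, SPI1, CEBPA, CD33, FLT3, MEIS1 and LYZ had an H3K4me3 peak within 1 kb of the TSS in all 4 lists, CD14 had one in the first Corin list, and MPO, CSF1R and ITGAM had none. Of the T cell, B cell and erythroid markers, 4 each, 0 had such a peak in any list. The labels do not say whether replicates were separate cultures, so p-values measure only the spread between these libraries of 1 cell line.

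The DNA at these starts differs widely in base composition. The RefSeq promoter table (GRCh38.p14) held entries for 5 of the 6 genes, 7 promoters in all. Shown are the bases before the start, up to the annotated gene start, for the start of CD86 where H3K4me2 was wider after Corin, the start of ICAM1 where H3K4me3 was wider, the inner start of CD83 beside its H3K4me3 peak, the start of CD274 that carried H3K4me2 in all 4 lists, and that of CD80, which carried no peak. Capitals mark exact matches on either strand to NF-kB (GGAANNTCC), IRF (TTTC then any 2 bases then TTTC), PU.1 (AGAGGAA), AP-1 (TGANTCA) or AGGTCA, a single unit of the paired element that retinoic acid receptors and other nuclear receptors bind.
CD86 start, chr3:122055112-122055361, plus strand: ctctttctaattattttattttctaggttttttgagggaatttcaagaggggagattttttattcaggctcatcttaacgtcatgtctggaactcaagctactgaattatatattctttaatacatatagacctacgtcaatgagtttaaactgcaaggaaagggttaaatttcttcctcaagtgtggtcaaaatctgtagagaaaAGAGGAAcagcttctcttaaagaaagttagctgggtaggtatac
ICAM1 start, chr19:10270870-10271092, plus strand: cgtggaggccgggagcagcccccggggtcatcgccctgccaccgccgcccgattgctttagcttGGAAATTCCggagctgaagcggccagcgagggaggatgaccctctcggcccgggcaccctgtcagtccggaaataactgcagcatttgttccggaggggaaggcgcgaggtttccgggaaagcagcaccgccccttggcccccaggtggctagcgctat
CD83 inner start, chr6:14117522-14117771, plus strand: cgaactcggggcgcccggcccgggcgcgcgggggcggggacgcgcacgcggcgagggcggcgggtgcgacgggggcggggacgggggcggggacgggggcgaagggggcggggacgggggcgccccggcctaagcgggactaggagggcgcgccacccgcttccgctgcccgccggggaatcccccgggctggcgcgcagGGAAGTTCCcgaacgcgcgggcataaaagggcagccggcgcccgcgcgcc
CD274 start, chr9:5450292-5450502, plus strand: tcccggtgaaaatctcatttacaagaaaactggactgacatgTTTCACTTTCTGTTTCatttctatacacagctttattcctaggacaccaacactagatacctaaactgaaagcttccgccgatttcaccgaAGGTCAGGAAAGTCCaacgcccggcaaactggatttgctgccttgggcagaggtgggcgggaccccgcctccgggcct
CD80 start, chr3:119559615-119559864, minus strand: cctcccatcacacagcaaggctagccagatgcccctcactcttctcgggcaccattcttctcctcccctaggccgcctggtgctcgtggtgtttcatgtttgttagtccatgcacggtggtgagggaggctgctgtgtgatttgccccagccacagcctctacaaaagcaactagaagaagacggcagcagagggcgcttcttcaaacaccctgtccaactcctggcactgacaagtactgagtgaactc
Over its 250 bases the CD86 promoter had 34% G and C and 2 CpG dinucleotides, against medians of 58% and 11 over 35116 promoters, and it held 1 PU.1 match. The inner CD83 promoter had 83.2% and 46 CpG, and ICAM1 had 66% and 23 over 250 bases, of which 223 are shown. The outer CD83 promoter, not shown, had 34.8% G and C, 5 CpG and no motif match. The promoter of the inner CD86 starts, also not shown, had 52%, 4 CpG and no match. An NF-kB match was found in the inner CD83 promoter and in those of ICAM1 and CD274, and 3.84% of all promoters held one. CD274 also held 2 overlapping IRF matches and an AGGTCA that abuts its NF-kB match. The shares of all promoters with a match were 3.02% for IRF, 8.13% for PU.1, 6.57% for AP-1 and 12.1% for AGGTCA. CD80 held no match to these letters in its window. A match describes the letters and was not tested for binding.

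H3K4me2 was the mark the genes shared. Near the TSS it was found in all 4 lists at CD86, CD40, CD83, ICAM1 and CD274, and in none at CD80. H3K4me3 was found at ICAM1 and CD83 and H3K27ac at CD86, CD83 and, in 1 list, ICAM1. CD40 and CD274 carried H3K4me2 without a peak of either other mark, and CD86 carried H3K4me2 and H3K27ac without H3K4me3.

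**Figure D1:**
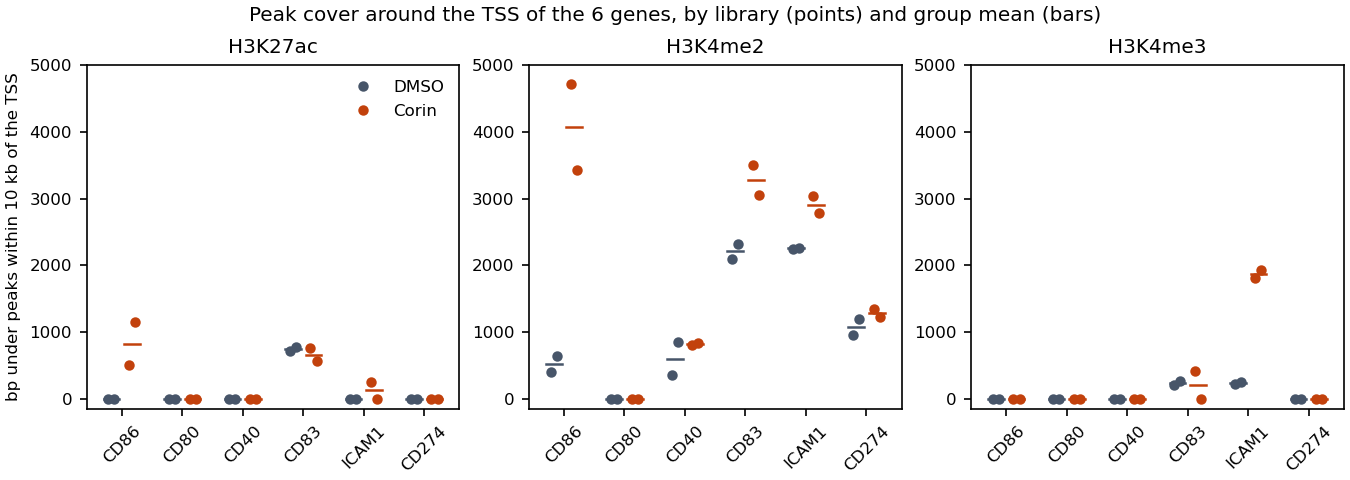
Bp under peaks within 10 kb of the TSS for the 6 genes (vertical axis) in each library (points, 2 Corin and 2 DMSO per mark) with the group means (bars), one panel per mark. CD86 in H3K4me2 (3424 and 4712 bp with Corin, 393 and 638 with DMSO) and ICAM1 in H3K4me3 (1816 and 1937 against 225 and 248) show the widest gaps between the groups.

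CD86 (ENSG00000114013.16, chr3:122055362-122121139, plus strand) had wider H3K4me2 peaks around its start after Corin. Within 10 kb of the TSS, H3K4me2 peaks covered 4712 and 3424 bp in the Corin libraries and 393 and 638 bp in the DMSO libraries. Both Corin libraries lay far above both DMSO libraries, and they lay above them in 40.5% of the genes tested for this mark. The means were 4068 ± 911 bp (SD, n = 2) and 515.5 ± 173 bp (SD, n = 2), a 7.89-fold ratio. The difference of 3552.5 bp (SE 453) had an adjusted p of 0.0776 in limma with Benjamini-Hochberg adjustment over 13735 genes, which did not pass 0.05. Among those genes the difference was 14th by size and 53rd by its p in limma. In that comparison limma called 0.160% of genes higher after Corin. The gap kept its direction in the 11 alternatives run, at 2908.5 to 4196.5 bp in those on the bp scale and 2.17 on the log2(bp + 500) scale. With all libraries kept, the adjusted p in limma ran from 2.54e-19 without the filter on low cover to 0.207 at a matched number of peaks. With the replicate number in the model it was 0.00243, but the labels do not give what the numbers mean.

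Much of the H3K4me2 gap at CD86 lay at the TSS and in the first kilobases of intron 1. The region over the TSS (chr3:122054913-122056686, from 449 bp before to 1324 bp after it, over exon 1) was covered over 1737 and 1325 bp in the Corin lists and 198 and 232 bp in the DMSO lists. All 4 lists had a peak there, so its width differed and not its presence. The Corin 1 peak began 449 bp upstream and reached over the printed promoter, while the Corin 2 peak began at the start itself. The DMSO peaks ran from 2 bp before to 195 bp after the start and from 15 to 246 bp after it, and so lay over exon 1 and the bases after it. A neighbouring region 1513 to 3360 bp into the gene had 1813 and 1825 bp with Corin, none in DMSO 1 and 406 bp in DMSO 2.

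Deeper in intron 1, the H3K4me2 regions of CD86 differed to unequal degrees. A region from 10791 to 12674 bp after the TSS was present in all lists, with 1827 and 1854 bp with Corin and 1658 and 1433 bp with DMSO. A region from 18672 to 19728 bp after the TSS had 1057 and 835 bp with Corin, 0 bp in DMSO 1 and 370 bp in DMSO 2, so both Corin lists were wider there. An inner pair of starts, 22487 and 22541 bp in, lay under a region of 485 and 514 bp with Corin, 0 bp in DMSO 1 and 424 bp in DMSO 2. A region from 30274 to 30762 bp after the TSS went the other way, with 489 bp in DMSO 2 and 0 bp in the other 3 libraries. Of 12 H3K4me2 regions at CD86, 2 were in both Corin lists and no DMSO list, at chr3:122076884-122077250 (240 and 277 bp, intron 1) and chr3:122101780-122102191 (412 and 338 bp, intron 2). Over all H3K4me2 regions of the genome 9.64% had that pattern and 0.158% the opposite one, which no region of the 6 genes had. Over the whole gene body H3K4me2 covered 8986 and 7242 bp with Corin and 2049 and 3354 bp with DMSO, and the difference of 5412.5 bp (SE 827) had an adjusted p of 0.137 in limma.

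**Figure D2:**
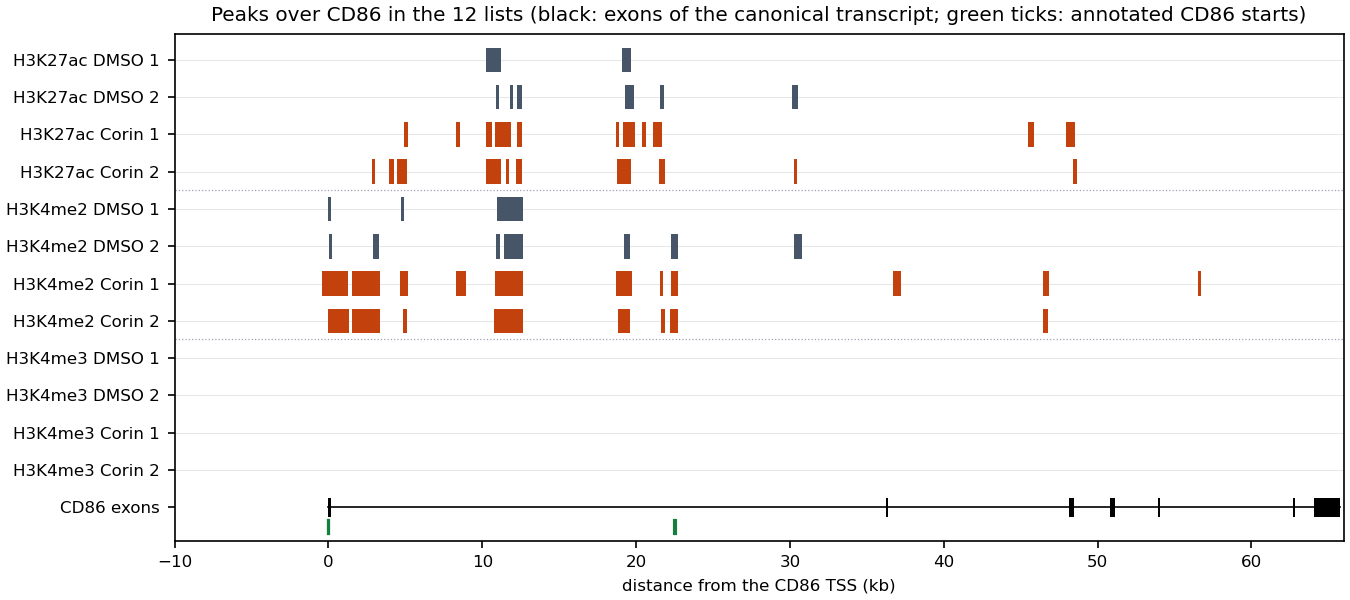
Peaks along CD86 in the 12 lists, 1 line per library, against the distance from the TSS in kb, with exons and annotated starts drawn below. H3K4me2 peaks at the TSS are wider in both Corin lists (1737 and 1325 bp) than in the DMSO lists (198 and 232 bp), H3K27ac peaks lie inside the gene and not over the TSS, and the H3K4me3 lines hold none.

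H3K27ac at CD86 lay inside the gene, in introns apart from 1 region over exon 3, and not over the start. Within 10 kb of the TSS it covered 500 and 1149 bp with Corin and 0 bp in both DMSO libraries. The groups did not overlap, and CD86 entered the test only through its Corin libraries. The difference of 824.5 bp (SE 281) had an adjusted p of 0.144 in limma, and 60.6% of the 9492 genes tested had both Corin libraries above both DMSO libraries for this mark. With the lists held to a matched number of peaks it was 239.5 bp, with peaks scored at least 100 it was 347 bp, and without Corin replicate 2 it was 500 bp. Without the filter on low cover the value was unmoved and its adjusted p was 0.0298 in limma. With the replicate number in the model the adjusted p was 0.0293 in limma.

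Over the CD86 gene body, H3K27ac covered 5143 and 4466 bp with Corin and 1544 and 1959 bp with DMSO. The Corin lists had 11 and 10 peaks there and the DMSO lists 2 and 6. The difference of 3053 bp (SE 651), a 2.74-fold ratio, had an adjusted p of 0.140 in limma, and the groups did not overlap, as for 59.7% of genes tested. At a matched number of peaks the difference was 922.5 bp and with peaks scored at least 100 it was 1356.5 bp. Of 12 H3K27ac regions at CD86, 2 were in both Corin lists and no DMSO list, a pattern shown by 11.5% of all H3K27ac regions, and 0 had the opposite pattern, shown by 0.180% of all. They lay at chr3:122059849-122060527 (285 and 624 bp, intron 1) and chr3:122103305-122103989 (594 and 220 bp, over exon 3).

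Intron 1 of CD86 held 2 H3K27ac regions that were present in all 4 lists. The nearer one, 10216 to 11995 bp after the TSS, had 1478 and 1174 bp with Corin and 935 and 403 bp with DMSO. The farther one, 18718 to 19922 bp after the TSS, had 981 and 904 bp with Corin and 609 and 605 bp with DMSO. Each was wider in both Corin lists, and both overlapped H3K4me2 regions, as did 8 of the 12 H3K27ac regions of the gene. The bases that peaks of all 4 H3K27ac lists covered are shown from the hg38 genome, whole at the nearer site (194 bases) and for 300 of 386 bases at the farther, with the same motifs in capitals.
CD86 intron 1, nearer site, chr3:122066287-122066480, plus strand: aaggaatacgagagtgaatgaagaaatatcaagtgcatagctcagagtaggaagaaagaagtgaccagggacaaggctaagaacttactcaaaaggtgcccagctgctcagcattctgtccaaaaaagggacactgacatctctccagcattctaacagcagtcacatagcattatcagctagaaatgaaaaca
CD86 intron 1, farther site, chr3:122074674-122074973, plus strand: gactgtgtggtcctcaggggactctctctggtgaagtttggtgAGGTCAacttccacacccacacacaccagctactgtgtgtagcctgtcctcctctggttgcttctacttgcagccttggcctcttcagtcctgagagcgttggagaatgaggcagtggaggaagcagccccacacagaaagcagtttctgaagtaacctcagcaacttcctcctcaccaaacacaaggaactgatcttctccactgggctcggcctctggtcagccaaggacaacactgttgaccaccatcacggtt
The nearer site held no match. The farther one held AGGTCA, which 16.4% of 9498 such H3K27ac region centres of 300 bases also held.

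H3K4me3 was not called at CD86 in any of the 4 lists, within 10 kb or over the gene body, and the nearest H3K4me3 peak lay between 218554 and 219037 bp from the TSS. A mark below the calling threshold would give the same 0.

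ICAM1 (ENSG00000090339.9, chr19:10271093-10286615, plus strand) had a wider H3K4me3 peak at its start after Corin. H3K4me3 near the TSS covered 1816 and 1937 bp in the Corin libraries and 225 and 248 bp in the DMSO libraries. The replicates lay close together and the groups far apart, with means of 1876.5 ± 85.6 bp and 236.5 ± 16.3 bp (SD, n = 2 each), a 7.93-fold ratio. The difference of 1640 bp (SE 112) was 18th by size and had the 2nd lowest p of 10916 genes (2.47e-05 unadjusted in limma). Its adjusted p was 0.104 in limma, which did not pass 0.05. Both Corin libraries lay above both DMSO libraries in 26.4% of genes tested for this mark. The gap kept its direction in the 11 alternatives, at 1579.5 to 1876.5 bp in those on the bp scale and 1.69 on the log2(bp + 500) scale. With all libraries kept, the adjusted p in limma ran from 1.22e-18 without the filter on low cover to 0.230 with a score of at least 100.

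The called H3K4me3 peaks at ICAM1 differed in position as well as in width. The Corin peaks ran from 1346 bp before to 469 bp after the TSS and from 1357 bp before to 579 bp after it, over exon 1. The DMSO 1 peak ran from 1025 to 801 bp before the TSS and the DMSO 2 peak from 263 to 16 bp before it. Both DMSO peaks lay within the span of the Corin peaks, and a shift of the mark itself was not tested. Neither DMSO peak reached the start, they did not overlap each other, and only the DMSO 2 peak lay over the printed promoter with its NF-kB match. By the authors' deposited score, the DMSO peaks ranked at the 4.12 and 0.551 percentiles within their own lists. The ICAM1 region was present in all 4 lists and so counted as neither gained (1.49% of all H3K4me3 regions) nor lost (0.289%). Over the gene body H3K4me3 covered 470 and 580 bp with Corin and 0 bp in both DMSO libraries (adjusted p 0.569 in limma). ICAM1 entered that test only through its Corin libraries.

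H3K4me2 at ICAM1 had a broad peak over the TSS in all 4 lists. The merged region ran from 1715 bp before to 1320 bp after the TSS, the extent of the Corin 1 peak. The DMSO peaks ran from 1398 bp before to 843 bp after it and from 1434 bp before to 829 bp after it. H3K4me2 covered 3036 and 2777 bp with Corin and 2242 and 2264 bp with DMSO. The groups did not overlap, as in 40.5% of the genes tested for this mark, and the 1.29-fold ratio (difference 653.5 bp, SE 256) had an adjusted p of 0.339 in limma. The wider H3K4me3 after Corin thus lay within DNA that carried H3K4me2 with either treatment. H3K27ac at ICAM1 was 1 peak of 254 bp in Corin 1, ending 452 bp before the start, and 0 bp in the other 3 libraries.

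**Figure D3:**
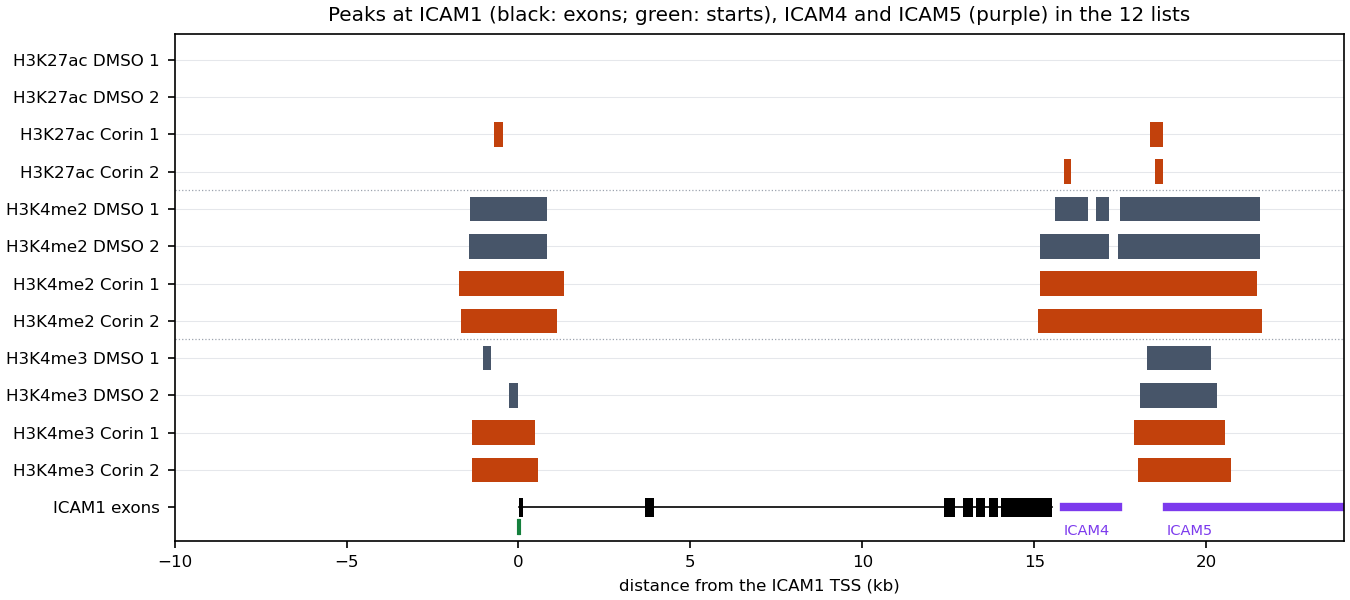
Peaks from the start of ICAM1 to ICAM4 and ICAM5 in the 12 lists, 1 line per library, against the distance from the ICAM1 TSS in kb. H3K4me3 peaks of 1816 and 1937 bp span the ICAM1 TSS in the Corin lists, the DMSO peaks of 225 and 248 bp lie upstream of it, and H3K4me2 covers it in all 4 lists.

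CD83 (ENSG00000112149.10, chr6:14117256-14136918, plus strand) was the only one of the genes with all 3 marks in a DMSO library. H3K4me2 near the TSS covered 3498 and 3047 bp with Corin and 2090 and 2327 bp with DMSO, a 1.48-fold ratio. The groups did not overlap, as in 40.5% of the genes tested for this mark. The difference of 1064 bp (SE 291) had an adjusted p of 0.204 in limma. With the 5 kb window it was 615 bp (adjusted p 0.424 in limma). Over the alternatives that kept all libraries, the adjusted p in limma ran from 0.114 to 0.474. Most of the covered bp lay over the 2 starts, in a region from 107 bp before to 1880 bp after the outer start with 1988 and 1728 bp with Corin and 1357 and 1631 bp with DMSO.

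A second CD83 region lay outside the gene. From 8653 to 7606 bp before the outer TSS, H3K27ac and H3K4me2 peaks overlapped in all 4 lists of each mark. H3K27ac near the TSS summed to 756 and 563 bp with Corin and 713 and 777 bp with DMSO, and the groups overlapped (difference -85.5 bp, adjusted p 0.853 in limma). This difference was -463.5 bp at a matched number of peaks, where both Corin libraries were lower, as in 4.02% of genes. It was -182 bp without Corin 1 and 11 bp without Corin 2. An intronic H3K27ac peak of 256 bp in DMSO 1 was the only part of the sum inside the gene. H3K4me3 was narrow and lay around the inner start, 516 bp into the gene and next to the GC-rich sequence shown. It covered 410 bp in Corin 1, 0 bp in Corin 2, 210 bp in DMSO 1 and 262 bp in DMSO 2, with no order between the groups (adjusted p 0.994 in limma). The H3K4me3 difference of -31 bp was 174 bp without Corin 2 and -236 bp without Corin 1. At a matched number of peaks it was also -236 bp, with both Corin libraries lower, as in 9.40% of genes.

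CD40 and CD274 each had 1 H3K4me2 region, over the start, in all 4 lists. At CD40 (ENSG00000101017.15, chr20:46118271-46129863, plus strand) it covered 801 and 842 bp with Corin and 357 and 843 bp with DMSO. The DMSO 1 peak was the short one, ending 55 bp before the TSS, and DMSO 2 matched the Corin libraries. The difference of 221.5 bp (SE 230, adjusted p 0.761 in limma) was -21.5 bp without DMSO 1 and 464.5 bp without DMSO 2. At CD274 (ENSG00000120217.14, chr9:5450503-5470566, plus strand) it covered 1346 and 1231 bp with Corin and 951 and 1201 bp with DMSO. The lower Corin and the higher DMSO library were only just apart, and the difference of 212.5 bp (SE 211, adjusted p 0.749 in limma) was at the 46.7th percentile of all genes tested. It was 87.5 bp without DMSO 1 and 337.5 bp without DMSO 2. The printed CD274 promoter, with its IRF and NF-kB matches, lay within the CD274 peak of each of the 4 lists.

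CD80 (ENSG00000121594.12, chr3:119524293-119559614, minus strand), the other CD28 ligand, had 0 bp of each mark near the TSS and over the gene body in all 12 lists. Its nearest H3K4me2 peak lay 10654 and 10628 bp from the TSS in the Corin lists and 19666 and 19721 bp in the DMSO lists. Its nearest H3K27ac peak lay between 19817 and 20026 bp away. Of the CD28 ligands, CD86 therefore carried peaks and CD80 did not.

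**Figure D4:**
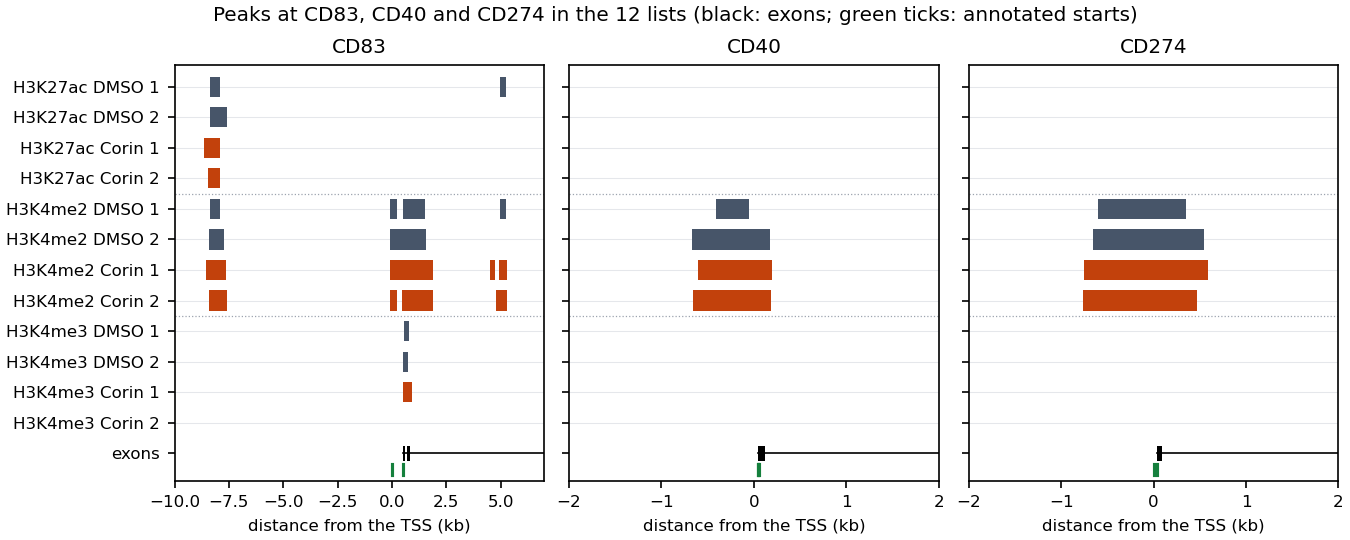
Peaks at CD83, CD40 and CD274 in the 12 lists, 1 line per library, against the distance from each TSS in kb. H3K4me2 lies over the starts of all of them in lists of either treatment.

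Set against all genes, the 6, which were chosen with earlier results of these data known, read as follows. For H3K4me2 near the TSS, 4 of the 5 genes with cover had both Corin libraries above both DMSO libraries, where 40.5% of all genes tested did, and all 5 had cover with either treatment. For H3K4me3 the gene with separated groups was ICAM1, with CD83 as the other gene tested, against 26.4% of all genes. For H3K27ac it was CD86, which was tested only because its Corin libraries had cover, so its separation was fixed by the filter and nothing is read from it against the 60.6% of all genes. With all peaks and all libraries, none of the 6 genes had both Corin libraries below both DMSO libraries for any mark. That pattern was shown by 3.92% of genes for H3K4me2, 8.49% for H3K4me3 and 0.727% for H3K27ac, and at a matched number of peaks CD83 had it for H3K4me3 and H3K27ac, as did 9.40% and 4.02% of genes. Over the gene body 4 of 5 genes had higher Corin libraries for H3K4me2, against 40.8%, and CD86 had them for H3K27ac, against 59.7%. For H3K4me3 the background was 24.2%, and ICAM1 was tested only through its Corin libraries. Lower Corin libraries over the gene body were seen in none of the 6 and in 4.89%, 9.36% and 1.07% of genes for H3K4me2, H3K4me3 and H3K27ac. The median H3K4me2 difference near the TSS was 653.5 bp over the 5 genes with cover, where the median of all genes was 242.5 bp. An exact two-sided permutation test of 2 against 2 libraries has 6 arrangements, of which 2 are as extreme as a full separation, so a single gene cannot pass 0.05 by it.

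**Figure D5:**
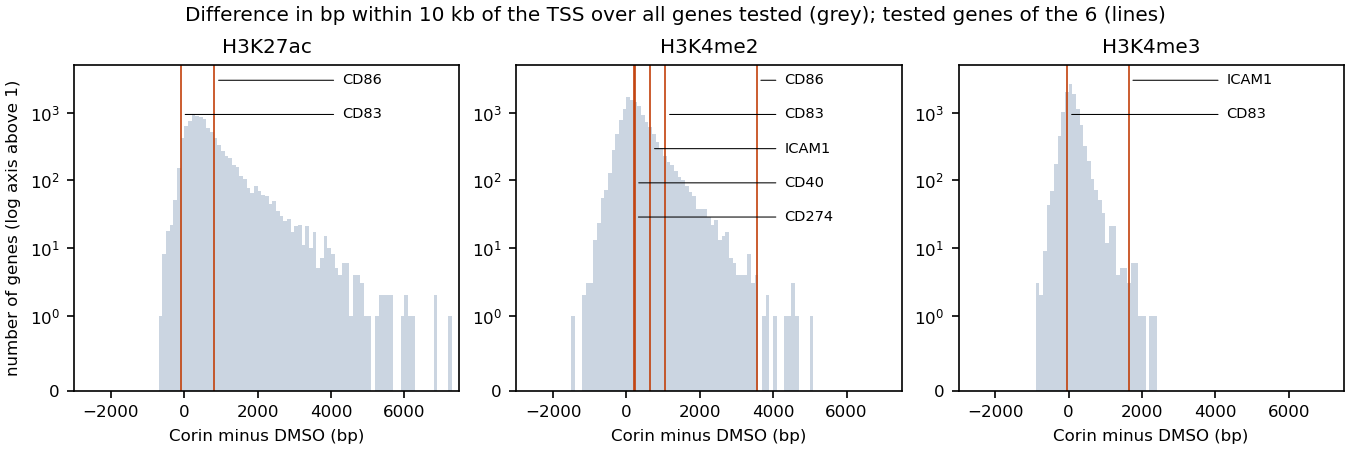
Number of genes (vertical axis, logarithmic above 1) by the difference in bp under peaks within 10 kb of the TSS, Corin minus DMSO (horizontal axis), one panel per mark, with the tested genes of the 6 as lines. CD86 in H3K4me2 (3552.5 bp) and ICAM1 in H3K4me3 (1640 bp) lie in the far right tails, while CD40 and CD274 lie near the medians.

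H3K4me2 was higher with Corin at most other ligands of the same kind that were tested, though limma called 1 of them. Of 18 further co-stimulatory, adhesion and checkpoint ligands, 16 were tested for H3K4me2, 14 had both Corin libraries above both DMSO libraries, 2 (CD276 and LGALS9) had overlapping groups, and none had them below. Over all genes tested the shares were 40.5% above and 3.92% below. The ligand list and the lists below were also chosen with earlier results of these data known. Among the 15 ligands with cover in a DMSO library, 13 had higher Corin libraries against 39.7% of all such genes, with a median difference of 1081.5 bp against 237.5 bp. CD276 and LGALS9 are named here after their values were seen. CD48, a ligand of CD2 and of the natural killer cell receptor CD244, rose in H3K4me2, from 915 and 1437 bp to 5374 and 4708 bp (difference 3865 bp, SE 365, adjusted p 0.0479 in limma), and was the only gene of the lists that limma called, where it called 0.160% of all genes for this mark. Its adjusted p was above 0.05 in 9 of 11 alternatives and reached 0.729 without Corin replicate 1. For H3K27ac 12 were tested, of which 5 had 0 bp in both DMSO libraries and had to be separated to pass the filter. Of the other 7, 6 had higher Corin libraries, against 57.3% of the 8768 genes with cover in a DMSO library, and their median was 1751 bp against 500.25 bp. For H3K4me3 the count was 7 of 12 against 26.4%, with a median of 179.25 bp against 62.5 bp. ICAM4 and ICAM5, whose windows share their peaks, count as 2 genes in the tallies of each mark. For H3K27ac they are among those with 0 bp in both DMSO libraries.

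Genes of CD40 and NF-kB signalling stood closer to the median of all genes. Of 17, all were tested for H3K4me2: 10 had both Corin libraries above (40.5% of all genes) and 1 had both below (3.92%), with a median difference of 323.5 bp against 242.5 bp. For H3K27ac 12 were tested, 1 of them only through its Corin libraries, and 7 of the other 11 had higher Corin libraries against 57.3% of such genes, with a median of 739.5 bp against 500.25 bp. For H3K4me3 the count was 7 of 14 against 26.4%, with a median of 114 bp against 62.5 bp. Of the 8 receptors of these ligands, which are mostly T cell genes, 3 were tested for H3K4me2, 2 for H3K27ac and 2 for H3K4me3. With cover in a DMSO library there were 2 for each mark. The Corin libraries were the higher ones in 2, 2 and 0 of them, against 39.7%, 57.3% and 25.9% of such genes.

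The genes most like CD86 were sought over the 12 libraries in bp near the TSS, after subtraction of each mark's mean, among 9747 genes with cover in all 3 marks. CD86 itself had 0 bp of H3K4me3, so genes that lack H3K4me3 as it does were not candidates. LTA4H, which makes leukotriene B4, had a Pearson r of 0.982 with CD86, with H3K4me2 of 4846 and 4131 bp with Corin and 1862 and 2140 bp with DMSO. Unlike CD86, LTA4H had H3K4me3 (1314 and 1313 bp with Corin, 1196 and 1197 bp with DMSO), and its H3K27ac was 261 bp in Corin 2 and 0 bp in the other 3 libraries. BLVRB, a biliverdin reductase, and its neighbour SPTBN4, a spectrin, shared 1 set of peaks and an r of 0.981, with 4697 and 4232 bp against 2380 and 2544 bp. The points share the difference between treatments and the peak number of each library, so the values describe likeness only.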

How the data were processed

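Peak lists of 12 CUT&RUN libraries, 1 list per library, were analysed. Per the submitters' processing notes, Trim Galore, Bowtie2, Picard and MACS2 were used with GRCh38 (hg38). Their settings, the control and the calling threshold are not given in the sources used here. Each list gives chromosome, start, end and a score deposited by the authors, a whole number of at least 50 whose definition is not stated, which served only for ranking and filtering within one library's list. The 292523 peaks all fell inside the hg38 chromosome lengths.

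From these lists the bp under peaks was computed for 20046 protein-coding genes (GENCODE 44) within 10 kb of the TSS and over the gene body, with Python 3.11.15 and pandas 2.3.3. For each mark, bp was compared in limma 3.58.1 (R 4.3.3; trended, robust variance) over genes with cover in at least 2 of 4 libraries, with Benjamini-Hochberg adjustment over all of them and a threshold of 0.05. A few libraries, 2 per group, set the precision. The fit was tested on simulated data. Peaks of the 4 lists of a mark were merged into regions, present in a library at 1 bp overlap. Of the comparison lists, genes that limma called near the TSS are named, at most 6, and the 3 genes most correlated with CD86.

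Alternatives were a matched number of peaks, a score of at least 100, a 5 kb window, the canonical transcript's TSS, log2(bp + 500), no filter on low cover, a replicate block, and each library left out. The genes and gene lists were chosen with earlier results of these data known. RefSeq promoters were matched by symbol. Scores, peaks and sequences of the 7 other libraries were not used here.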

Additional observations from a re-analysis of the deposited data

How the results depend on the processing

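The 17 differences in bp of the 6 genes were recomputed 168 times: 156 kept direction and side of the threshold, 7 passed it, and 5 turned direction. Turned were, without Corin replicate 2, CD83 H3K27ac near the TSS (11 bp, range with a library left out -182 to 11) and CD83 H3K4me3 near the TSS and over the gene body (174 bp, range -236 to 174 for each), and, without DMSO replicate 1, CD40 H3K4me2 near the TSS (-21.5 bp, range -21.5 to 464.5) and CD274 H3K4me2 over the gene body (-14 bp, range -14 to 178). Without the filter on low cover, which adds genes at 0 bp to the variance estimate, 5 differences passed in limma: near the TSS CD86 H3K4me2 (adjusted p 2.54e-19), CD86 H3K27ac (0.0298) and ICAM1 H3K4me3 (1.22e-18), and over the gene body CD86 H3K4me2 (0.0427) and ICAM1 H3K4me3 (0.00365). The genes called near the TSS then numbered 1352 for H3K27ac, 862 for H3K4me2 and 261 for H3K4me3, and over the gene body 26, 205 and 357. The 22 genes called for H3K4me2 near the TSS became 0 with a matched number of peaks, a score of at least 100, the canonical TSS or the log2 scale, 2 with the 5 kb window, and 0 to 0 with each library left out. H3K27ac calls over the gene body ranged from 0 to 891 with a library left out, 891 being without Corin replicate 1. With the replicate block, 1568 genes were called for H3K27ac and 471 for H3K4me2 near the TSS. Under it, limma gave CD86 an adjusted p of 0.00243 for H3K4me2 and 0.0293 for H3K27ac, and no other call of the 6 genes changed. Deviations of same-numbered libraries correlated at 0.303, 0.314 and 0.232 for H3K27ac, H3K4me2 and H3K4me3, but with 2 numbers, whose meaning the labels do not give, the block was not taken as a pairing. Of the 6 genes, those with non-overlapping groups became 2 for H3K27ac and 2 for H3K4me3 at a matched number of peaks, in each case 1 higher and 1 lower after Corin, the lower being CD83 (-463.5 and -236 bp), where 4.02% and 9.40% of all genes were lower and 40.5% and 24.9% higher. They ranged from 1 to 2 for either mark with a library left out. Among them, CD83 was lower for H3K27ac without Corin replicate 1 or DMSO replicate 1. For H3K4me3 CD83 was lower without Corin replicate 1 and higher without Corin replicate 2. For H3K4me2 without DMSO replicate 1 the separated genes were 4 higher and 1 lower, CD40, and without DMSO replicate 2 they were 5 higher. With 2 libraries against 1, all genes were separated more often: 69.4% to 81.0% higher and 2.06% to 7.09% lower for H3K27ac, 48.2% to 67.8% and 7.30% to 21.2% for H3K4me2, and 37.7% to 50.7% and 18.2% to 26.6% for H3K4me3. With at least 50% of a region covered, regions in both Corin and no DMSO lists at the 6 genes numbered 1 for H3K27ac, 7 for H3K4me2 and 1 for H3K4me3, where 15.1%, 13.7% and 2.18% of all regions had that pattern. At a matched number of peaks they numbered 0 and 1 for H3K27ac and H3K4me2 (4.49% and 3.91% of all regions), and 1 H3K4me3 region was in both DMSO lists alone (0.882% of all, with 0.804% in both Corin lists alone). The cause of these differences was not tested. Depth is unknown, so an empty window does not show that a mark is absent.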

Other observations

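The ICAM1 gene ends where a wider cluster of H3K4me2 begins. The region chr19:10286199-10292711 lay over the last exon of ICAM1 and the starts of its neighbours ICAM4 and ICAM5, which encode further adhesion molecules of the family, and covered 6326 and 6513 bp with Corin and 5442 and 6140 bp with DMSO. Near the ICAM5 TSS, H3K4me3 covered 2652 and 2697 bp with Corin and 1867 and 2251 bp with DMSO (adjusted p 0.602 in limma). ICAM3, a further gene of the family nearby, had H3K27ac of 1565 and 1858 bp with Corin and 396 and 0 bp with DMSO (adjusted p 0.0878 in limma). Its adjusted p in limma was 0.160 for H3K4me2, with separated groups, and 0.907 for H3K4me3, with overlapping groups. MRPL4, on the other side of ICAM1, had overlapping groups for H3K27ac (adjusted p 0.624 in limma) and H3K4me3, and higher Corin libraries for H3K4me2 (0.312).

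PDCD1LG2, the other PDCD1 ligand and a neighbour of CD274 on chromosome 9, had H3K4me2 of 1136 and 756 bp near its TSS after Corin and 0 bp in both DMSO libraries, and H3K27ac of 492 and 482 bp against 0 bp. The adjusted p values were 0.141 and 0.149 in limma, and PDCD1LG2 entered both tests only through its Corin libraries. PLGRKT, on the other side of CD274, had overlapping groups for each mark. ICAM3, MRPL4, PDCD1LG2 and PLGRKT are named for their place near ICAM1 and CD274 and were chosen after their values were seen.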
